A study of Schmidtea polychroa with 132 samples.

Results

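The 178 transcripts described here rose in small steps from stage 4 to stage 8 of planarian development. They are 178 of the 15124 transcript models counted, chosen by their own levels. For each model, normalised read counts (CPM, the count of a transcript scaled to a common total of transcript counts in each library) were computed after 3 models whose counts follow the synthetic spike-ins had been left out, and the median CPM of each stage was taken. A member had a stage 8 median of at least 30 CPM, a median that was higher at each step from stage 4 to stage 8, and a ratio of stage 8 to stage 4 over 3 after 1 CPM was added to both medians. No step between medians exceeded 3-fold, and the last step, from stage 7 to stage 8, did not exceed 2-fold. The levels in stages 4 to 8 therefore chose the list and are given below as a description without a test. Stages 1 to 3 and yolk had no part in the choice.

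The libraries came from single embryos of Schmidtea polychroa, a freshwater planarian, kept in their egg capsules at 20 °C and collected over 15 days of development. Stages 1 to 8 held 6, 29, 22, 10, 13, 16, 16 and 15 embryos, and 4 further libraries are labelled yolk and 1 protist. The labels name no genotype, strain or treatment, and they do not say which embryos shared a capsule. RNA was counted by CEL-Seq, which reads the 3′ ends of transcripts, from a library that had undergone DSN treatment. Planarian eggs carry no yolk of their own, and the capsule holds separate yolk cells that the embryo swallows through a temporary pharynx. The swallowed yolk then lies inside the embryo and is used up while the organs of the definitive worm, among them the pharynx, brain, eyes and muscles, are formed. A whole-embryo library thus mixes RNA of embryonic cells with RNA of yolk cells, and more cells of a type and more RNA per cell cannot be told apart in it. No gene names come with the transcript IDs, so members are given by ID, marker lists could not be applied, and no function is given for any of them.

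Transcript totals per library ranged from 16740 to 1623149 counts. Totals given as counts, here and below, include the 3 models left out of CPM. The proportions among the spike-ins separated the libraries into 4 sets, A to D, which the labels do not mention. Stages 1 to 3, yolk and protist lay in sets A and B, stages 4 to 6 in set C, and stage 7 in set D with 14 of 15 stage 8 libraries, while the other stage 8 library lay in set C. Entry into stage 4 and entry into stage 7 therefore coincide with a change of set. In stage 4, replicates 3 and 10 stood apart, with 55.9% and 31.5% of their transcript counts in a set of 115 protist-high transcripts, and with the lowest member shares of that stage, 0.301% and 0.484% (0.797% to 1.55% in the other 8).

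Of 15121 models under the rule, 5320 reached a stage 8 median of 30 CPM. Of these, 626 had a higher median at each step and 511 of those also exceeded the ratio of 3. The limits on single steps removed 333 of the 511, so that larger jumps were more common than the gradual course kept here. Another 1721 models had the level and the ratio but fell back at one step or more. The ratio of stage 8 to stage 4 among the 178 had a median of 4.60, quartiles of 3.76 and 6.35, and ran from 3.00 to 18.1. Stage 8 medians lay between 30.6 and 4743 CPM, with 101 members under 100 CPM, 71 from 100 to 1000 CPM and 6 above 1000 CPM. At the lower edge of the rule, FW_v1_tr_08046 (265 CPM in stage 8 and 87.8 CPM in stage 4) and FW_v1_tr_03321 (142 and 46.6 CPM) lay just inside the ratio. FW_v1_tr_05628 (42.6 and 13.6 CPM) and FW_v1_tr_02103 (349 and 116 CPM) lay just outside, at ratios of 2.995 and 2.989.

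The steps of the rise were of unequal size. The median member stood at 17.3, 28.0, 37.7, 70.9 and 83.9 CPM in stages 4, 5, 6, 7 and 8. In log2(median CPM + 1), the median step was 0.73 on entering stage 5, 0.31 on entering stage 6, 0.87 on entering stage 7 and 0.29 on entering stage 8. The step into stage 7, where the library set changes, was the largest for 100 of 178 members (56.2%). The step into stage 5 was the largest for 57 (32.0%), that into stage 6 for 12 (6.74%) and that into stage 8 for 9 (5.06%). Library set and stage cannot be told apart for the step that was largest in most members. The other 5142 models with at least 30 CPM in stage 8 had a median of 35.5, 49.3, 47.3, 67.5 and 66.7 CPM in stages 4 to 8.

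**Figure D1:**
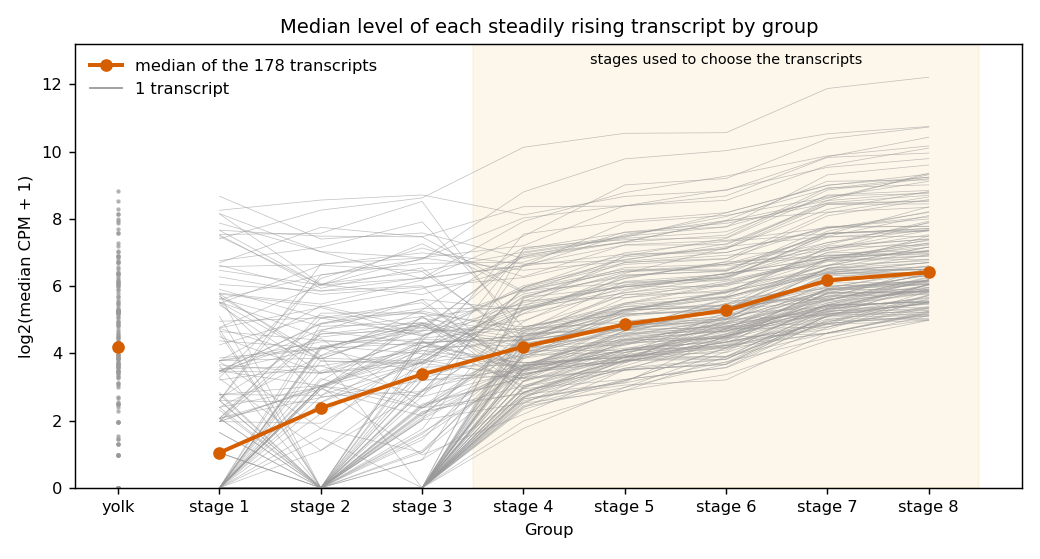
Median CPM of each of the 178 transcripts (grey lines, and grey points for yolk) on the scale log2(median CPM + 1), with the median over the transcripts in orange, for yolk and stages 1 to 8. The shaded stages chose the transcripts, and the lines reach a median of 83.9 CPM in stage 8 after 17.3 CPM in stage 4, while many members have a median of 0 in stages 1 to 3.

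Together the 178 members took a growing part of each embryo's transcript counts. Their summed share was 0.953% at the median in stage 4 (range 0.301% to 1.55%), 1.48% in stage 5 (0.927% to 1.82%), 1.86% in stage 6 (0.765% to 2.37%), 3.14% in stage 7 (2.74% to 3.84%) and 3.96% in stage 8 (3.33% to 4.21%). Among the 70 embryos of these stages, the ranges of stages 4, 5 and 6 overlapped: 5 of 13 stage 5 embryos lay above the highest of stage 4, and 10 of 16 stage 6 embryos above the highest of stage 5. All 16 stage 7 embryos lay above the 16 of stage 6, and 10 of 15 stage 8 embryos lay above the highest of stage 7. For single members the embryos overlapped more. In 48 of 178 members (27.0%) the lowest of 15 stage 8 embryos lay above the highest of 10 stage 4 embryos, against 13.5% of the other models with at least 30 CPM in stage 8 and 5.32% of all transcripts with a count in these stages, a contrast the rule itself used. From stage 6 to stage 7 this held for 5 members (2.81%), against 1.83% of all transcripts and 4.84% of the other models with at least 30 CPM in stage 8. For the other 3 steps it held for no member and for 0% of all transcripts.

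**Figure D2:**
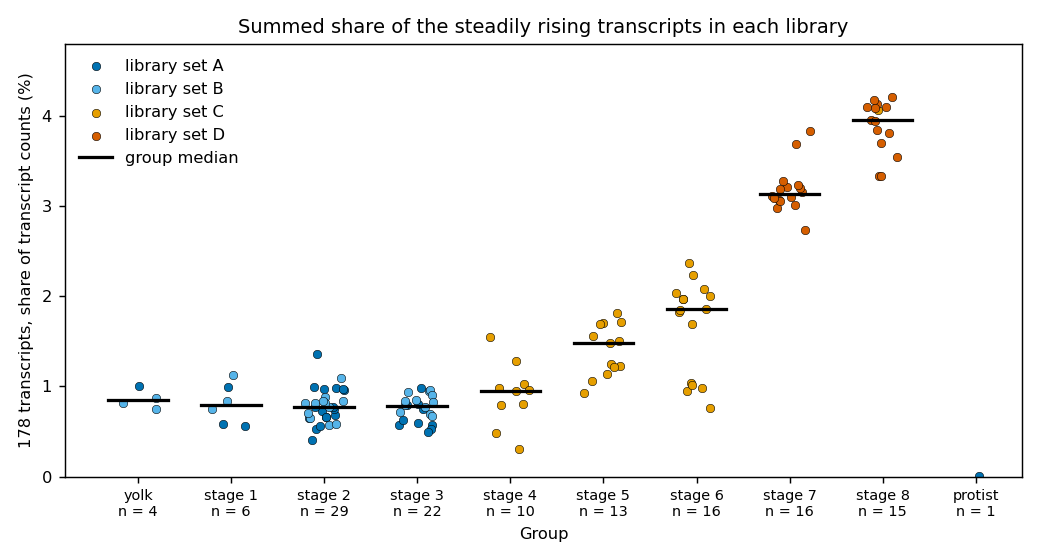
Summed share of the 178 transcripts in the transcript counts of each library (y axis, percent), by group, with points coloured by library set and black lines at the group medians. The shares stay near 0.8% in yolk and stages 1 to 3 and reach medians of 3.14% in stage 7 and 3.96% in stage 8, and 5 stage 6 embryos lie apart from the other 11.

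Stage 6 fell into separate ranges. Replicates 3, 5, 11, 14 and 15 had shares of 0.765%, 1.04%, 0.948%, 0.987% and 1.01%, and the other 11 lay between 1.69% and 2.37%, with no embryo between. The 5 low embryos lay at the level of stage 4. In each of them, 71.9% to 82.0% of the 178 members were below their own stage 6 median, against 24.2% to 46.6% in the other 11. Among the other 5142 models with at least 30 CPM in stage 8, the portion below the stage 6 median in the same 5 embryos was 58.7% to 66.0%, so that transcripts outside the list were also low there.

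Yolk RNA moved with this difference. A set of 448 transcripts, with at least 100 CPM in yolk and over 10 times their stage 8 level, took 7.91%, 6.86%, 9.27%, 7.68% and 9.51% of the counts of stage 6 replicates 3, 5, 11, 14 and 15, and 1.74% to 4.92% in the other 11 embryos. None of the 178 members is in this set, which their level of at least 30 CPM in stage 8 makes unlikely by rule. The log2 ratio of transcript to spike-in counts was 1.64 to 2.47 in the 5 embryos and 2.18 to 4.60 in the others, and transcript totals were 101952 to 395289 and 174530 to 1068561. The part of yolk content, embryo RNA and depth in the low shares was not tested. Over the stages, the yolk-high share had medians of 4.92%, 4.58%, 3.96%, 0.675% and 0.536% in stages 4 to 8. Because this set was chosen for low levels in stage 8, its low share there follows from the choice. With yolk-high and protist-high transcripts left out of the totals, the median member share in stage 8 was 3.94 times that in stage 4, and 4.15 times with them included.

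**Figure D3:**
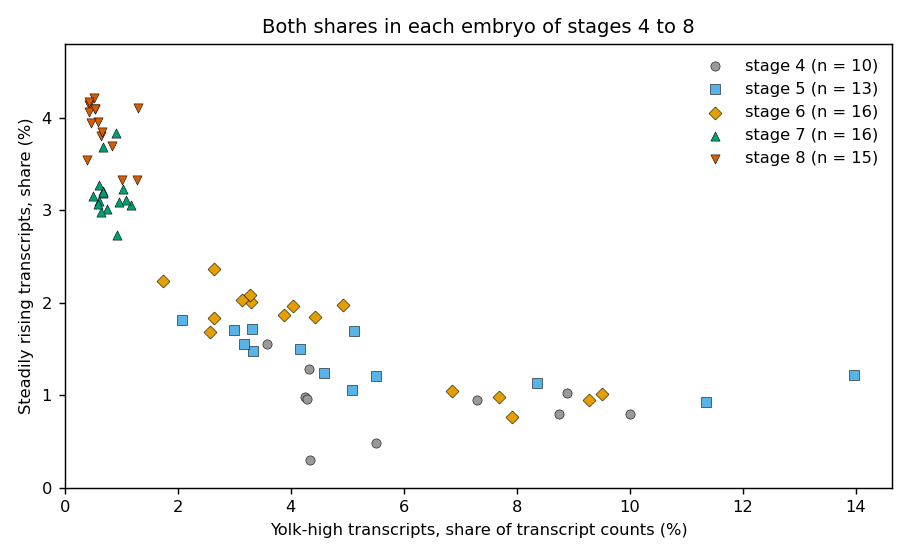
Share of the 178 transcripts (y axis, percent of transcript counts) against the share of 448 yolk-high transcripts (x axis, percent) in each embryo of stages 4 to 8, with a symbol per stage. Both are shares of the same total, and the 5 stage 6 embryos with yolk-high shares of 6.86% to 9.51% are those with 0.765% to 1.04% for the rising transcripts.

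One stage 8 library, replicate 12, shared set C with stages 4 to 6. It is 1 of the 15 libraries behind the stage 8 medians of the rule, so its values are a description and do not separate set from stage. Its member share was 4.06%, within the 3.33% to 4.21% of the 14 stage 8 libraries of set D and above the 0.765% to 2.37% of the 16 stage 6 libraries of its own set. In it, 171 of 178 members (96.1%) were above their stage 6 median, against 63.1% of the other models with at least 30 CPM in stage 8. Above their stage 7 median were 140 members (78.7%), against 49.7% of the others. Without it, 165 of the 178 members still had a higher median at each step. The whole rule was then met by 172 transcripts, 159 of them among the 178.

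Few members carried much of the summed level. The 6 above 1000 CPM in stage 8 held 30.2% of the member counts at the median stage 8 embryo and 28.5% at the median stage 4 embryo. Without these 6, the median share was 2.79% in stage 8 and 0.683% in stage 4. FW_v1_tr_04194, the most abundant member, took 11.9% of member counts at the median stage 8 embryo. Its CPM ranged from 387 to 1507 in stage 4 (median 1117), 1147 to 1743 in stage 5 (median 1492), 821 to 2506 in stage 6 (median 1510), 2442 to 6827 in stage 7 (median 3758) and 3469 to 6242 in stage 8 (median 4743). The stage 8 embryos all lay above the stage 4 embryos, and the largest step, 1.31 on the log2 scale, was that into stage 7, with 0.02 into stage 6. The second, FW_v1_tr_03156, ranged from 158 to 1126 CPM in stage 4 (median 444), 290 to 1413 in stage 5 (median 880), 69.2 to 1810 in stage 6 (median 1043), 1172 to 1837 in stage 7 (median 1477) and 1270 to 2096 in stage 8 (median 1716). Its largest step, 0.98 on the log2 scale, was that into stage 5, within set C. In stage 6 its 5 lowest values, 69.2 to 326 CPM, belonged to the same replicates 3, 5, 11, 14 and 15, and the next was 892 CPM.

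The largest ratios belonged to 2 members of different abundance. FW_v1_tr_11367 was at 0 to 100 CPM in stage 4 (median 35.4), 11.0 to 196 in stage 5 (median 82.2), 0 to 258 in stage 6 (median 140), 182 to 545 in stage 7 (median 373) and 277 to 1622 in stage 8 (median 657), a ratio of 18.1. No stage 4 embryo reached the lowest stage 8 value. FW_v1_tr_03722 was at 0 to 38.1 CPM in stage 4 (median 2.40), 0 to 46.4 in stage 5 (median 6.92), 0 to 46.8 in stage 6 (median 15.5), 18.6 to 107 in stage 7 (median 44.5) and 30.3 to 191 in stage 8 (median 57.6), a ratio of 17.2. It rests on 60 counts over 10 stage 4 embryos, and stages 4 and 8 overlapped.

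**Figure D4:**
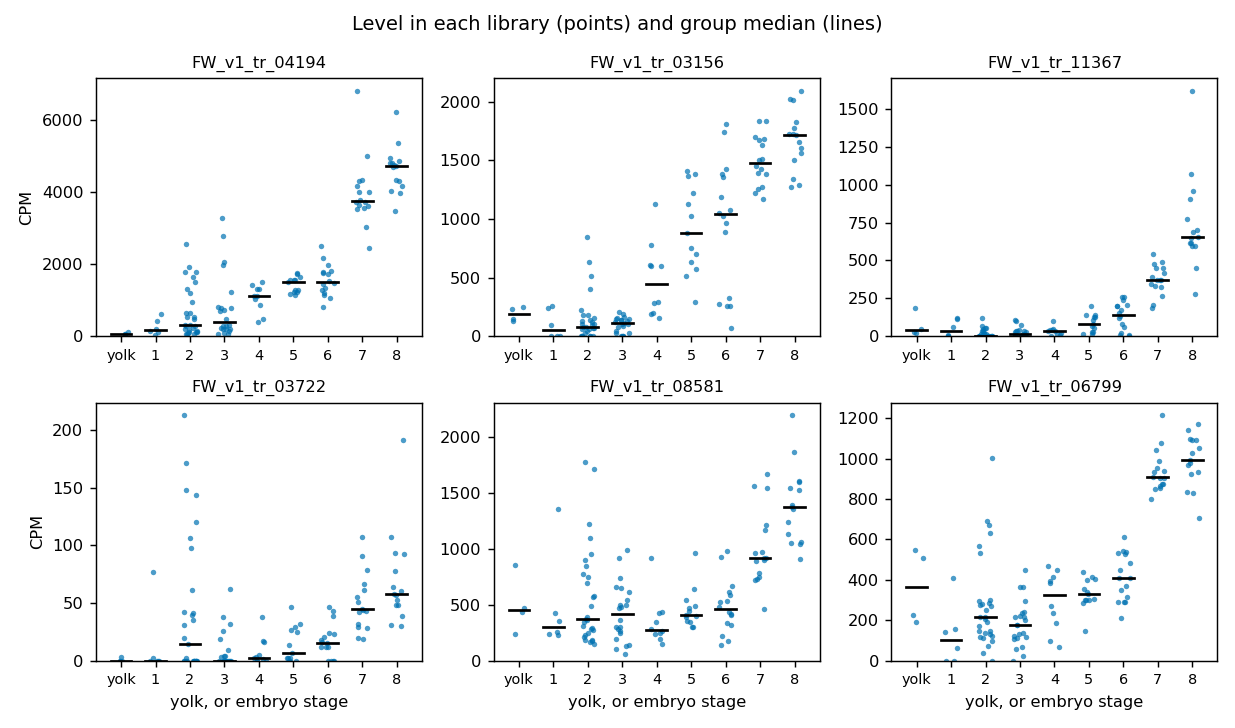
CPM of 6 members in each library (points) with group medians (lines), for yolk and stages 1 to 8. The upper row begins with the 2 most abundant members in stage 8, then come the 2 with the largest ratio of stage 8 to stage 4, and the last 2 are those with the highest yolk medians (451 and 366 CPM).

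The members with the most equal steps were of low abundance. FW_v1_tr_05891 had medians of 10.9, 16.0, 24.6, 34.7 and 43.7 CPM in stages 4 to 8, with an SD of 0.11 among its 4 log2 steps. FW_v1_tr_03926 had 5.98, 10.7, 17.7, 23.2 and 35.7 CPM, with an SD of 0.16. Both had a library without a count in stage 8, 1 of 15 and 3 of 15, and their ranges overlapped across all 5 stages. The even steps held for medians alone. By means FW_v1_tr_05891 was at 38.5 CPM in stage 8, against 40.9 CPM in stage 7, and by summed counts at 43.2 CPM in stage 8, against 46.3 CPM in stage 7. FW_v1_tr_03926 was by summed counts at 24.5 CPM in stage 7, against 27.1 CPM in stage 6. By the ratio of highest to lowest stage 8 embryo, with 1 CPM added to both, the widest spread was that of FW_v1_tr_13230, at 0 to 355 CPM (median 199), followed by FW_v1_tr_09045, at 0 to 145 CPM (median 65.6). Each had 1 embryo without a count. The next lowest embryo stood at 110 CPM for FW_v1_tr_13230 and at 25.0 CPM for FW_v1_tr_09045.

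**Figure D5:**
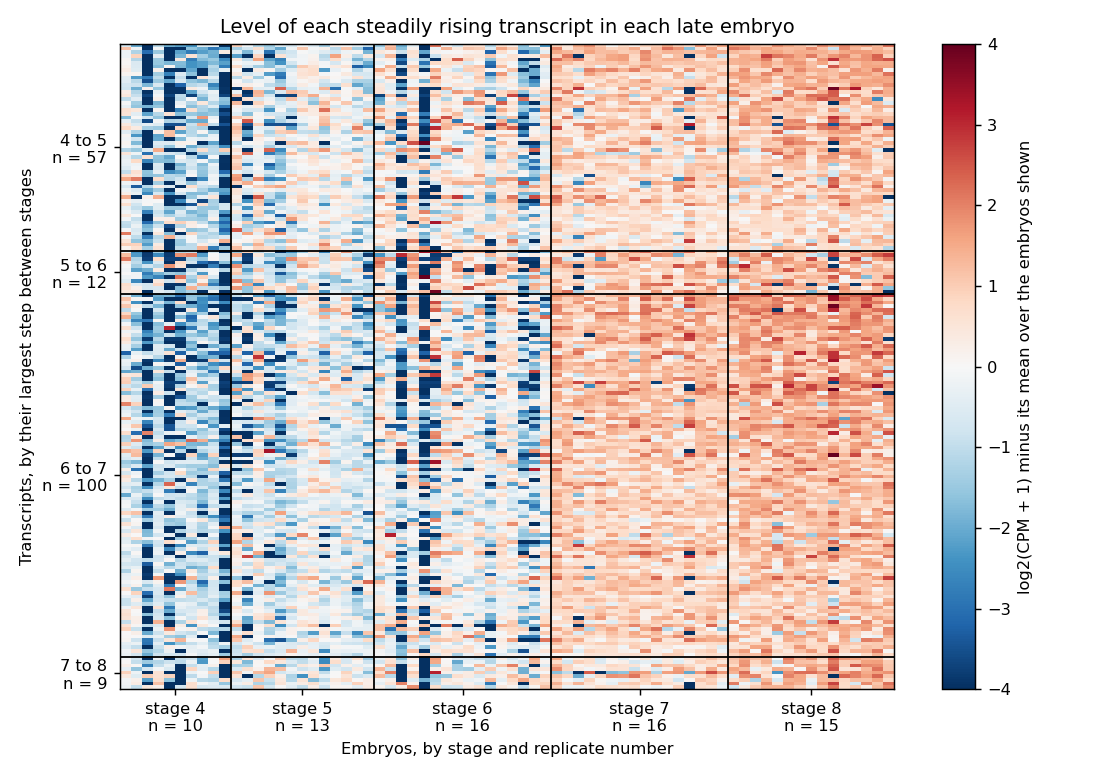
Level of each of the 178 transcripts (rows) in each of the 70 embryos of stages 4 to 8 (columns, by replicate number within a stage), as log2(CPM + 1) minus the transcript's mean over these embryos. Rows are grouped by the largest step between stage medians, 57, 12, 100 and 9 transcripts from top to bottom, and whole columns of stages 4 and 6 are pale or dark blue while stages 7 and 8 are mostly red.

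Embryos of stages 7 and 8 resembled each other more than those of stages 4 to 6. Among members between the quartiles of the list's levels, the median SD of log2(CPM + 1) between embryos was 1.93, 1.19, 1.85, 0.59 and 0.65 in stages 4 to 8. Other models in the same range of levels had median SDs of 1.91, 1.14, 1.66, 0.62 and 0.71, so that this course was shared with transcripts outside the list. These quartiles lay at 9.58 and 41.9 CPM in stage 4 and at 55.5 and 200.01 CPM in stage 8, and the part of the level in the SD was not tested. Median transcript totals were 608300, 512407, 523738, 775004 and 682548 in stages 4 to 8.

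In yolk and in stages 1 to 3, which the rule did not use, the members already took a share of counts near that of stage 4. The share was 0.563% to 1.13% in stage 1 (median 0.792%, n = 6), 0.402% to 1.36% in stage 2 (median 0.772%, n = 29) and 0.497% to 0.982% in stage 3 (median 0.784%, n = 22). In the 4 yolk libraries it was 0.747%, 0.817%, 0.876% and 1.00%. All of these groups overlapped with each other and with stage 4. The median of stage 4 was 1.22 times that of stage 3, but 0.899 times with yolk-high and protist-high transcripts left out of the totals, so that the direction of this difference depended on the total used. Yolk-high transcripts took 52.1%, 35.5% and 37.0% of counts at the median in stages 1, 2 and 3 and 50.6% in yolk. Stages 1 to 3 and yolk each combine sets. Medians were 0.578% in set A and 0.837% in set B for stage 1, and 0.748% in set A and 0.814% in set B for stage 2. For stage 3 they were 0.616% in set A and 0.831% in set B. The 1 yolk library of set A was at 1.00%, and the 3 of set B had a median of 0.817%. In the protist library the share was 0.0075%, and 168 of 178 members had no count there, which allows up to 17.3 CPM for each (3 counts of that library). Such limits cover counting error only.

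Counts summed over each group showed the same for single members. The median member was at 16.8, 20.6, 21.7 and 26.3 CPM in stages 1, 2, 3 and 4, at 83.1 CPM in stage 8 and at 21.9 CPM in yolk. Summed counts weight embryos by depth. In stage 1 the libraries of set A held 16740 to 20650 transcript counts and those of set B 99004 to 471534, so the summed level follows mostly set B. Medians over embryos gave 1.06, 4.21 and 9.39 CPM in stages 1, 2 and 3 for the median member, where shallow libraries often held no count of a member, so that the climb of these medians before stage 4 was much flatter in the summed counts. No member lacked a count in stages 2 and 3, while 14 had none in stage 1 and 15 none in yolk, where 3 counts are worth 3.88 and 2.43 CPM over the group. Summed levels in stage 3 were above stage 4 for 61 members (34.3%), against 25.5% of the other 5142 models with at least 30 CPM in stage 8. Yolk was above stage 4 for 63 members (35.4%), against 22.2% of the others, and above stage 8 for 13 (7.30%), against 13.1%. Since members were chosen for low stage 4 levels, these proportions are a description and were not tested. A rise at each step from stage 1 through stage 4 held for 29 members (16.3%), against 30.5% of the others. Levels in yolk and stages 1 to 3 under 10% of stage 8 held for 31 (17.4%), against 20.4%.

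The member with the highest yolk median, FW_v1_tr_08581, was at 859, 469, 434 and 236 CPM in the yolk libraries. Its medians were 304, 376, 418, 277, 405, 458, 918 and 1376 CPM in stages 1 to 8. The ranges of all stages from 1 to 8 overlapped, with 462 to 1666 CPM in stage 7 and 906 to 2195 CPM in stage 8. The lower stage 4 median was nearly absent from the summed counts, at 328, 330 and 309 CPM in stages 2, 3 and 4. FW_v1_tr_06799 was at 508, 549, 224 and 193 CPM in yolk and had medians of 102, 214, 176, 328, 332, 409, 907 and 992 CPM in stages 1 to 8. Its step from stage 4 to stage 5 was 0.02 on the log2 scale, and all 16 stage 7 embryos (803 to 1214 CPM) lay above all 16 of stage 6 (209 to 614 CPM). FW_v1_tr_04194 differed from both, with 117, 69.5, 5.82 and 57.2 CPM in yolk and a range of 47.2 to 3286 CPM in stage 3 (median 393).

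Whether the list already moved before stage 4 was asked with edgeR's quasi-likelihood test, fitted on all transcripts that passed its filter on low counts, with Benjamini-Hochberg adjusted p under 0.05 as a call. The members passing the filter numbered 42 in the test of stage 2 against stage 1 and 25 in that of stage 3 against stage 2. Against yolk there were 58 in stage 2 and 90 in stage 3, and the remaining members were too low to be tested. No member was called in any of the 4 comparisons. Calls were rare outside the list too. Among all transcripts tested, 0% were called for stage 2 against stage 1. The call rate was 1.28% for stage 3 against stage 2 (0.291% higher, 0.991% lower). For stage 2 against yolk it was 0.0838% (0.0559% higher, 0.0279% lower), and for stage 3 against yolk 0.233% (0.155% higher, 0.0777% lower). An unadjusted p under 0.05 was found for 7 members in stage 2 against stage 1 (16.7% of members tested, 16.3% of all transcripts) and for 2 in stage 3 against stage 2 (8.00% and 9.85%). Against yolk it was found for 11 members in stage 2 (19.0% and 23.0%) and for 9 in stage 3 (10.0% and 21.3%). DESeq2 called 1 of 42 members (lower) between stages 2 and 1, against 38 higher and 53 lower of 2613 transcripts. Between stages 3 and 2 it called 0 of 25 members, against 11 higher and 27 lower of 1716 transcripts. Against yolk it called 7 of 58 members in stage 2 (6 higher, 1 lower) and 5 of 90 in stage 3 (4 higher, 1 lower). Among all transcripts it called 457 higher and 81 lower of 3581 in stage 2, and 760 higher and 57 lower of 5149 in stage 3.

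The effect sizes behind these tests were uncertain, with a median SE of the log2 fold change over tested members of 0.41 for stage 3 against stage 2 and of 0.83 to 0.84 in the other 3 comparisons. With no filter, so that all 178 members entered, their median log2 fold change for stage 2 against stage 1 was 0.07 (0.62 over all transcripts) and for stage 3 against stage 2 it was 0.16 (0.23). Against yolk it was -0.17 in stage 2 (0.25 over all transcripts) and -0.06 in stage 3 (0.49). For the members that passed the filter, the medians were -0.16 for stage 2 against stage 1 (0.43 over all transcripts tested) and 0.05 for stage 3 against stage 2 (0.06). Against yolk these filtered medians were -0.28 in stage 2 (0.11) and -0.36 in stage 3 (0.14). FW_v1_tr_04194 had a log2 fold change of 4.00 (SE 1.18) for stage 3 against yolk and 3.79 (SE 1.20) for stage 2 against yolk, which missed the threshold in edgeR (adjusted p = 0.0630 and 0.0803). DESeq2 called it in both (adjusted p = 0.000334 and 0.00098). For stage 2 against stage 1 its log2 fold change was 1.89 (SE 0.91, edgeR adjusted p = 0.293). FW_v1_tr_08581 had log2 fold changes of -0.35 (SE 0.54, edgeR adjusted p = 0.767) for stage 3 against yolk and -0.48 (SE 0.30, edgeR adjusted p = 0.665) for stage 3 against stage 2.

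Set against the spike-ins, the rise was steeper. Member counts per spike-in count had medians of 0.0858, 0.153, 0.174, 1.01 and 2.34 in stages 4 to 8, with ranges of 0.0106 to 0.410, 0.0538 to 0.384, 0.0320 to 0.503, 0.276 to 1.35 and 0.744 to 3.81. The stage 8 median was 27.3 times that of stage 4 on this measure, and 4.15 times as a share of transcript counts. The measure follows embryo RNA if each library received the same spike-in amount, which was not tested, and it includes the change of set on entering stage 7. On this scale 100 of 178 members had a higher median at each step, with 105 higher in stage 6 than in stage 5. For the step into stage 8, within set D save for 1 library, all 178 were higher. The log2 ratio of all transcript to spike-in counts had medians of 3.17, 4.97 and 5.89 in stages 4, 7 and 8. This rise of all transcripts is part of the 27.3-fold difference. Members were also chosen for a higher CPM in stage 8 than in stage 7, so the 178 of 178 is no separate result.

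Which transcripts made the list depended on the summary of each stage and on the scaling of the counts. CPM scaled by edgeR's TMM factors gave 146 transcripts under the rule, 110 of them among the 178. Of the 178, 134 then had a higher median at each step, and 149 were higher in stage 8 than in stage 7. With means in place of medians 269 transcripts met the rule, 96 of them among the 178, and with counts summed over a stage 313 met it, with 89 among the 178. Of the 178, 116 had a higher level at each step by means and 126 by summed counts. Without stage 4 replicates 3 and 10, 155 transcripts met the rule, 134 of them among the 178. The ratio of stage 8 to stage 4 then exceeded the rule's limit of 3 for 143 of 178 members and 2 for 176, with a lowest value of 1.88, and 162 had a higher median at each step. Of 98 members averaging at least 20 counts, 9 had counts equal to those of another model within counting noise, in 3 cases both of a pair being members, and these may share reads.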

How the data were processed

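Whole-number read counts per transcript model, spike-in and HTSeq counter, not normalized, were deposited by the authors in 1 table of 132 libraries. The tools named in the submitters' processing notes are HTSeq 0.5.4p3, Bowtie2 2.1.0 and CASAVA 1.8. Their roles, the strand setting and the use of molecular identifiers are not given in the sources used here, and the build named there belongs to Drosophila, so no coordinates are given. The counters for reads without an alignment and without a feature held 63.6% and 2.56% of all counts and stayed out of totals. Each column was matched to the sample with the same number in its title. Replicate numbers follow accession order and pair nothing. P-values measure the spread between libraries, since the labels do not say which embryos are independent.

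The members and lists were chosen with earlier results of these data known. The rule was applied to CPM computed without 3 transcripts that follow the spike-ins, with 1 CPM added in the ratio and none in the step limits. Named members were the 2 with the highest stage 8 level, the largest ratio, the most equal steps, the highest yolk level and the widest stage 8 range, and those at the edge of the rule. A further part of the rule, for members called in a test, named none. Yolk-high transcripts had at least 100 CPM in yolk and over 10 times the stage 8 level, and protist-high ones at least 50 CPM in protist and over 10 times each other group. Library sets came from Ward clustering of 26 spike-ins of 92. The edgeR 4.0.16 fits (R 4.3.3, TMM, filterByExpr, robust quasi-likelihood) used the libraries of both groups with a total of at least 5% of the median of all libraries (16872 counts). This left out stage 1 replicate 1. The 3 transcripts that follow the spike-ins were kept in these totals and, unless stated, in the fits. The fits were also run on simulated data with large fold changes and no library sets, which does not bear on smaller changes or on sets. SEs were computed from each fold change and the test's F value. DESeq2 1.42.0, other size factors, filters, library sets and left-out libraries were the alternatives.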

Additional observations from a re-analysis of the deposited data

Results flagged for a closer look

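Among the named members, the summed share and the number of members detected, 42 groups of 4 to 10 libraries were examined for a library far from the others. In all, 11 were found. The limit used gives about 1 in 20 groups for normally distributed values, which low counts in shallow libraries are not. A group with counts in 1 library alone is always flagged, so the 11 cannot be compared with chance. FW_v1_tr_11367 stood at 100.3 CPM in stage 4 replicate 1, against 0 to 43.9 CPM in the other 9. FW_v1_tr_03722 stood at 38.1 CPM in the same embryo, against 0 to 17.5 CPM. That embryo also had the highest member share of stage 4, 1.55%. FW_v1_tr_03926 stood at 30.0 CPM in stage 4 replicate 8, against 0 to 14.0 CPM. FW_v1_tr_08581 stood at 919 CPM in stage 4 replicate 10, one of the protist-rich libraries, against 146 to 435 CPM.

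In stage 1, FW_v1_tr_08581 stood at 1357 CPM in replicate 5, against 232 to 428 CPM in the other 5, and FW_v1_tr_08046 at 303 CPM in the same replicate, against 0 to 99.8 CPM. FW_v1_tr_03722 and FW_v1_tr_03926 each stood at 77.3 CPM in stage 1 replicate 2, a value of 1 count in a shallow library, against 0 to 2.12 CPM and 0 to 21.2 CPM. FW_v1_tr_09045 stood at 2.12 CPM in stage 1 replicate 6 (1 count) and at 6.95 CPM in yolk replicate 2 (2 counts), and FW_v1_tr_03722 at 2.91 CPM in yolk replicate 3 (1 count), with no count in the other libraries of those groups.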

How the results depend on the processing

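No paired analysis was possible because the labels give no replicate numbers shared between groups. Under the rule, 178 transcripts were members. The number was 269 with means, 313 with summed counts (chosen after seeing the data), 77 with at least 100 CPM in stage 8 and 71 with counts per spike-in count (0 of them among the 178). In the other alternatives it ran from 121 to 192, the highest with 1 CPM added in the step limits. Among these, TMM-scaled CPM gave 146, with 110 of them among the 178. Per spike-in count the ratio of stage 8 to stage 4 exceeded 3 for all 178 (lowest 10.6), and 100 rose at each step. The summed member level rose 5.83-fold into stage 7 and 2.31-fold into stage 8 on that scale, above the step limits of 3-fold and 2-fold. The log2 fold of the median member share in stage 8 over stage 4, 2.05, was 4.77 per spike-in count and 1.98 to 2.05 otherwise. Small share differences changed sign: stage 2 over stage 1 was 0.27 per spike-in count, and without yolk-high and protist-high transcripts in the totals stage 4 over stage 3 was -0.15 and stage 3 over stage 2 was -0.042 (log2). The log2 ratios of stage 8 to stage 4 of the 12 named members moved by less than the spread between embryos in 112 of 120 recomputations, the other 8 being those per spike-in count, and 0 changed sign.

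Members called were 0 in each comparison by edgeR. For stage 2 against stage 1 DESeq2 called 1 of 42 members (91 of 2613 transcripts). With no filter 1 of 178 was called there (105 of 13832). With at least 10 counts in 50% of a group's libraries it was 1 of 19 (54 of 1045). For stage 3 against stage 2 with no filter 9 of 178 were called (5 higher, 4 lower), against 862 of 14344 transcripts. By DESeq2, 7 of 58 (6 higher, 1 lower) were called for stage 2 against yolk, against 538 of 3581 transcripts. For stage 3 against yolk it called 5 of 90 (4 higher, 1 lower), against 817 of 5149 transcripts. In set A alone 0 members were called in each comparison. Beyond stage 3 against stage 2, these fits were chosen after seeing the data and hold 2 stage 1 libraries or 1 yolk library, which is assumed to vary like the other group. The median log2 fold change of tested members in set A was 1.30 for stage 2 against stage 1 (16 members). Over all transcripts tested it was 1.23. For stage 2 against yolk in set A it was 0.76 (38 members), against 1.15 over all transcripts. In both sets together the members had -0.16 and -0.28 (42 and 58 members), against 0.43 and 0.11 over all transcripts. Leaving out each stage 1 or yolk library in turn gave 0 member calls. Calls over all transcripts varied more. For stage 2 against stage 1 (0) they were 23 with RLE factors, 91 by DESeq2, 105 with no filter, 54 with the 10-count filter, 9 with set as a term and 17 in set B, and 0 to 20 leaving out a stage 1 library. For stage 3 against stage 2 (22) they were 38 by DESeq2, 862 with no filter, 6 with libraries over 25% of the median total, 9 in set A and 0 in set B. For stage 2 against yolk (3) they were 538, 76, 7 and 6 by DESeq2, with no filter, the 10-count filter and the 25% minimum, 24 with set as a term and 0 in set B, and 0 to 6 leaving out a yolk library. For stage 3 against yolk (12) they were 817, 49, 7 and 25 in the same order, 28 with set as a term, 4 in set A, 4 in set B, 0 without the 3 spike-in-following transcripts and 1 to 22 leaving out a yolk library. The cause of these differences was not tested. Depth limits the early comparisons: 1 count was worth 77.3 CPM in stage 1 replicate 2, and more in the shallower stage 1 replicate 3, which was also in the fits.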
